A study of Mus musculus with 19 samples.

Results

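The 44 genes described here are the collagens that form part of the extracellular matrix: every row of the deposited expression table whose symbol had the form Col, a number, a and a number, out of 21086 rows. They were chosen by name alone. All 44 reached 1 normalised read (reads divided by 1 size factor per tumour) in 4 or more tumours, and so stood among the 19927 genes tested. Their RNA was measured by bulk sequencing of polyadenylated RNA in 19 lymphomas from Eμ-Myc mice (Em-Myc in the labels), in which an immunoglobulin heavy chain enhancer directs Myc to the B lineage. All groups carried this transgene. They were 4 late-onset tumours with 1 deleted Bptf allele (Bptf+/Δ, called HET_late, onset at 30 to 66 weeks), 5 late-onset tumours with both Bptf alleles (Bptf+/+, WT_late, 28 to 76 weeks), 4 early-onset Bptf+/Δ tumours (HET_early, 8 to 13 weeks) and 6 early-onset Bptf+/+ tumours (WT_early, 9 to 17 weeks). Bptf encodes the large subunit of the chromatin remodeller NURF. The sources used here do not say where in the body each tumour lay, in which cells the Bptf allele was deleted, or that the lymphomas came from separate mice, so p-values measure only the spread between these tumours.

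Collagens are secreted or membrane proteins whose alpha chains wind into a triple helix, and the chains of 1 collagen type are often encoded by separate genes. Fibrillar collagens build the cables of skin, bone, cartilage and vessel walls, type IV collagens build the sheet under epithelium and endothelium, and the other classes decorate fibrils, form beaded filaments or anchor cells. In lymphoid organs they are known chiefly as products of fibroblastic reticular cells, pericytes and endothelium rather than of lymphocytes.

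Bptf itself had 408 to 1573 normalised reads in HET_late and 1681 to 2586 in WT_late tumours, and 1277 to 1551 in HET_early and 1665 to 2480.0 in WT_early tumours, so every Bptf+/Δ tumour lay below every Bptf+/+ tumour. Recovered depth was 8297856 to 12497732 reads per tumour. HET_early_2, the tumour labelled PTB257, stood apart from the other 18. The summed level of 8 B cell markers was 598.2 there and 6538 to 37114 in the other 18 tumours, in normalised reads. The summed level of the 7 cartilage markers in the table was 193046, against 8.65 to 2711, and that of 7 skeletal muscle markers was 270249, against 29.9 to 4685. Of 10 markers of pro-B and pre-B cells, Rag2, Dntt, Vpreb1 and Igll1 were at 0 there, while Rag1 (2.66), Lef1 (840.1), Sox4 (443), Cplx2 (269), Erg (181) and Il7r (66.5) lay within the range of the other 18 tumours. Fits are therefore given with and without this tumour, and what part its makeup had in a result was not tested. In bulk RNA, fewer cells of a type and less RNA per cell cannot be told apart.

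Collagens took up a small share of the reads in most tumours. Their share was 0.0629% to 0.255% (median 0.137%) in HET_late and 0.0756% to 0.339% (median 0.105%) in WT_late tumours. It was 0.248%, 14.6%, 0.0917% and 0.225% in HET_early tumours, the second being HET_early_2, and 0.114% to 0.552% (median 0.226%) in WT_early tumours. Apart from HET_early_2 the 4 groups overlapped, and the mean over the other 18 tumours was 0.202% ± 0.123 (SD, n = 18).

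**Figure D1:**
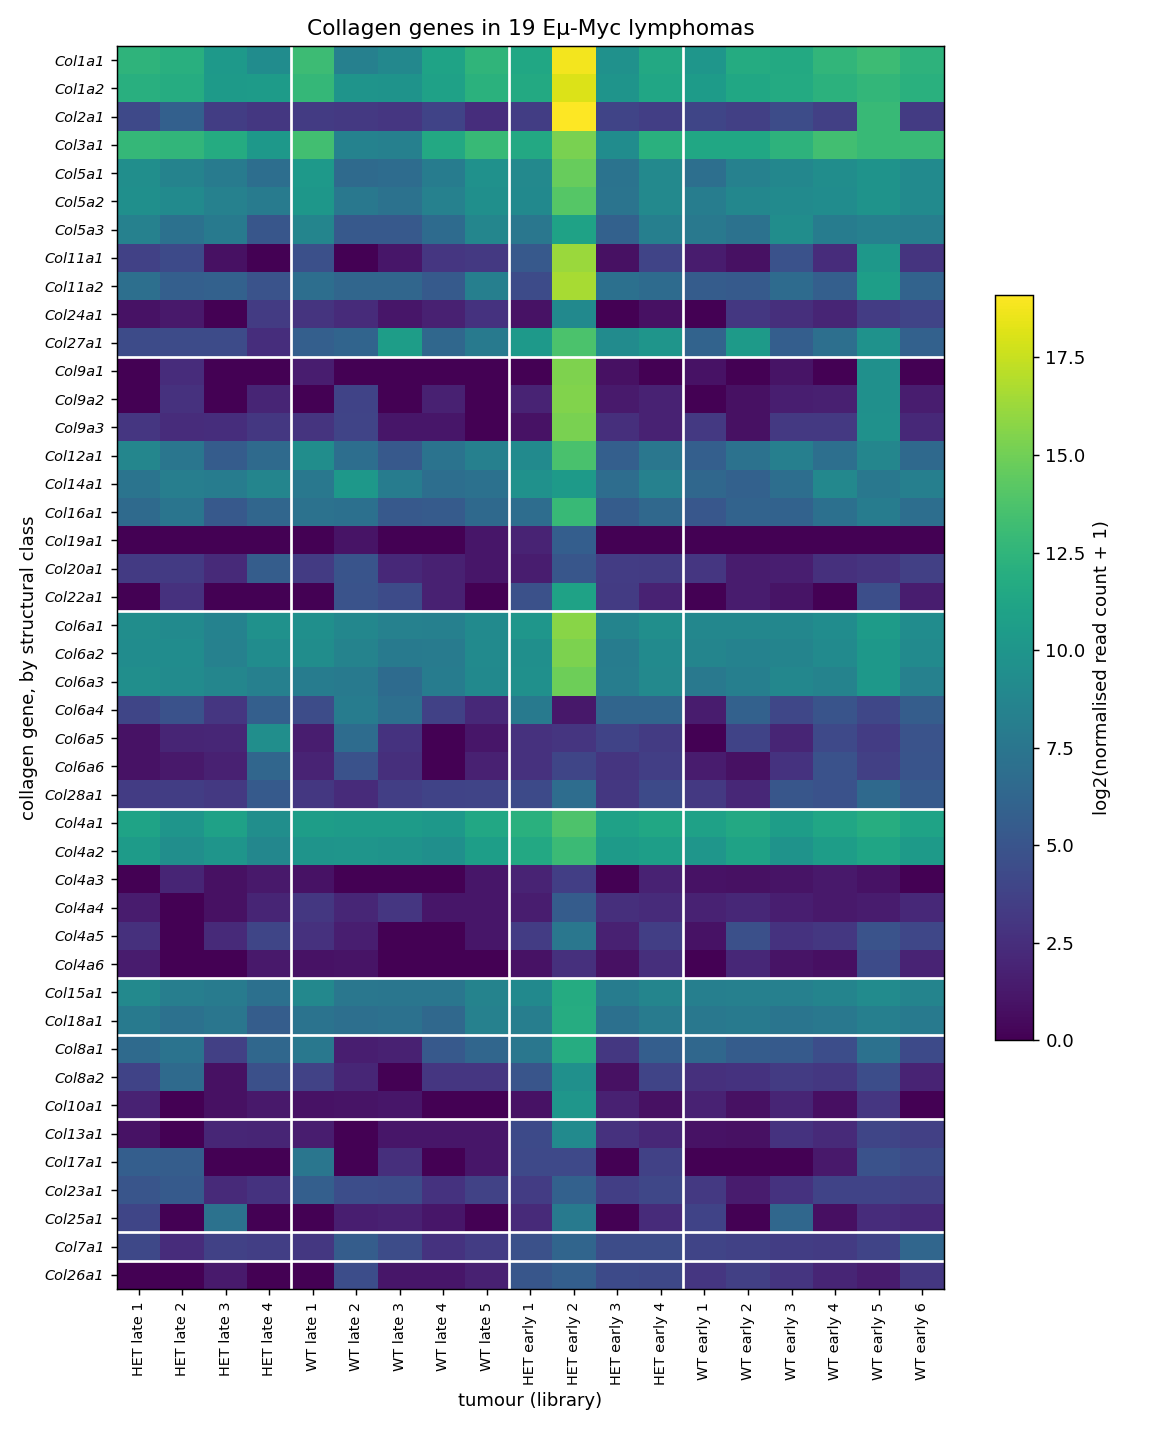
Each cell is the level of 1 collagen gene (rows, by structural class) in 1 tumour (columns, by group), as log2(normalised read count + 1). HET_early_2 is bright in most rows, and WT_early_5 stands out in Col2a1, Col11a1 and the 3 type IX rows.

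A few fibrillar and basement membrane chains had the highest levels. By the median over the 18 tumours other than HET_early_2, 5 genes lay at or above 1000 normalised reads: Col1a1 and Col1a2 (type I, the main fibril of bone, skin and tendon), Col3a1 (type III, the fibril of reticular fibres) and Col4a1 and Col4a2 (the type IV chains of most basement membranes). A further 10 lay between 100 and 1000, 9 between 10 and 100, 15 between 1 and 10, and 5 below 1. The 5 lowest were Col10a1, Col4a6, Col4a3, Col19a1 and Col9a1. Col19a1 was at 0 in 15 of 19 tumours and Col9a1 in 12, and a count of 0 allows up to 3 reads in a library.

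Per kilobase of annotated exon, mean levels over the same 18 tumours were 537 for Col1a1, 472 for Col3a1, 286 for Col4a1, 249 for Col1a2, 204 for Col4a2 and 140.03 for Col6a1 (normalised reads per kilobase, n = 18). Their SDs ran from 63.1 for Col6a1 to 414 for Col1a1, so neighbours in this order overlapped widely. The length used matters to the order: per kilobase of the longest transcript Col3a1 came first, at 832 ± 587, ahead of Col1a1 at 594 ± 458 and Col1a2 at 578 ± 341 (SD, n = 18 each). The leading collagen by read count was Col3a1 in 11 of these 18 tumours, Col4a1 in 3, Col1a1 in 2, Col1a2 in HET_late_4 and Col27a1 in WT_late_3.

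Fibrillar collagens made up 20.5% to 78.6% of the collagen signal per kilobase in the 18 tumours, lowest in WT_late_2 and highest in WT_late_1. Type IV chains made up 8.5% in WT_late_1 and 42.9% in HET_early_3, the lowest and highest of the 18. In HET_early_2 fibrillar chains made up 75.0% and type IV chains 1.3%.

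Type I and type III RNA varied widely within every group. Col1a1 had 5501, 4175, 1285 and 638 normalised reads in HET_late and 8904, 327, 475, 2204 and 5875 in WT_late tumours. It had 2632, 455813, 802 and 2935 in HET_early tumours, the second being HET_early_2, and 1029 to 8758 (median 4319) in WT_early tumours. Without HET_early_2 the groups overlapped almost completely, and the highest of the 18 tumours was 27.2 times the lowest.

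Col3a1 had 6657, 6156, 3491 and 1195 normalised reads in HET_late and 10513, 349.6, 316, 2918 and 7382 in WT_late tumours. It had 2954, 39520, 636 and 4469 in HET_early and 2682 to 10537 (median 6259) in WT_early tumours. WT_late_2 and WT_late_3 were the lowest tumours for Col3a1, and the same pair was lowest for Col1a1.

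Type IV RNA was more even. Col4a1 had 2183, 999.6, 1914 and 702 normalised reads in HET_late and 1581, 1459, 1448, 1141 and 2777 in WT_late tumours. It had 4533, 13742, 2009 and 2659 in HET_early and 1610 to 3791 (median 2350.0) in WT_early tumours. The span over the 18 tumours was 6.46-fold, and late tumours lay mostly in the lower part of it.

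**Figure D2:**
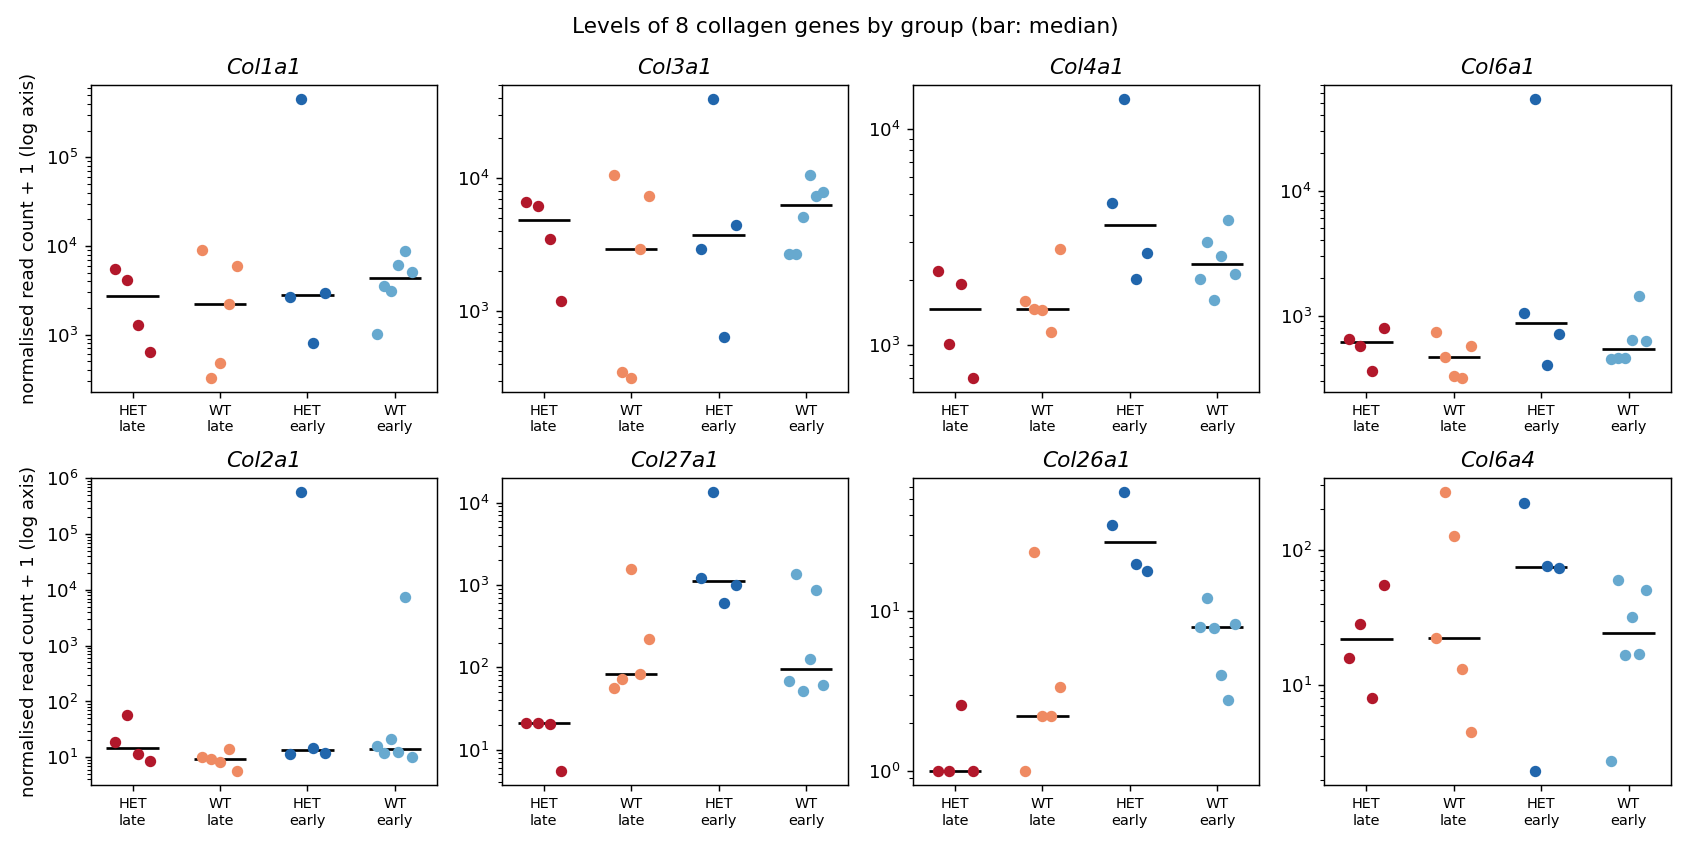
Points are tumours, bars are group medians, and the y axis is the normalised read count plus 1 on a log axis, for 8 collagen genes in the 4 groups. HET_early_2 is the top point for 7 of the 8 genes and the lowest HET_early point for Col6a4, and WT_early_5 is the only other tumour above 1000 for Col2a1.

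HET_early_2 had the highest value of all 19 tumours for 37 of the 44 collagens, and for 22 of them it exceeded the highest of the other 18 more than 10-fold. The share of all genes highest in this tumour was not counted, so these numbers do not set collagens apart from other genes. Col2a1, the main fibril of cartilage, had 566685 normalised reads there, 74.6 times the next highest tumour. Col10a1, made by hypertrophic chondrocytes, had 1077, against a highest value of 7.12 elsewhere, a ratio of 151 and the only one above 100. Col1a1 was 51.2 times and Col6a1 37.9 times the highest of the other 18.

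Several collagens did not share this excess. Col3a1 was 3.75 times, Col4a1 3.03 times and Col14a1, a fibril-associated collagen of soft connective tissue, 1.12 times the highest of the other 18. The 7 genes highest elsewhere were Col4a6, Col6a4, Col6a5 and Col6a6 (alternative chains of types IV and VI), Col7a1 (anchoring fibrils under epithelium), Col17a1 (hemidesmosomes) and Col20a1. Col6a4 had 1.33 normalised reads in HET_early_2, the lowest of all 19 tumours, which spanned up to 265 in WT_late_2. Of the fibroblast list 11 of 12 markers were in the table. They summed to 16449 in HET_early_2, against 838 to 4110 in the other 18, and the 12 endothelial markers to 11223, against 2206 to 6246. No marker of these 2 lists, nor of the cartilage list, was at 0 in HET_early_2.

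A further tumour, WT_early_5, held cartilage collagen RNA at a lower level. Col2a1 had 7592 normalised reads there, against 4.71 to 56.2 in the 17 tumours other than this one and HET_early_2. Col9a1, Col9a2 and Col9a3, the type IX chains that coat cartilage fibrils, had 780, 790 and 825, against highest values of 4.32, 13.2 and 14.3 in those 17 tumours. Col11a1, which sets the width of cartilage fibrils, had 1161, against a highest value of 39.1, while Col11a2 had 1665, against 311. Col10a1 had 7.12, against 2.95.

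Apart from Col10a1, these genes exceeded the other 17 tumours in WT_early_5 by more than any other collagen did. Col10a1 was 2.42 times the highest of those 17, on 8 reads, while Col4a6 was 3.88 times, on 22 reads. WT_early_5 was the highest of the 18 tumours for 15 collagens. It exceeded the other 17 more than 10-fold for 5 of them, namely Col2a1, Col11a1 and the 3 type IX genes. The share of all genes highest in WT_early_5 was not counted either. The 7 cartilage markers summed to 2711 in WT_early_5 and 8.65 to 600.3 in the other 17, with Acan, the cartilage proteoglycan, at 1865 and at most 13.0. B cell markers summed to 25053 in this tumour, inside the range of the others. These 7 collagens were listed for their cartilage role, and the part of cartilage RNA in each comparison below was not tested.

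Late tumours were set against early ones, averaged over the 2 Bptf genotypes, to ask how collagens differ with onset. Col26a1, an emilin-related collagen first described in testis and ovary, was the 1 collagen that passed the test, and it was lower in late tumours. In that comparison 87 of 19927 genes passed, 0.437% of all tested, and 0.191% passed in the lower direction. Most collagens had lower means in late tumours, with 41 of 44 log2 fold changes negative and a median of -1.07, against -0.08 over all genes. Without HET_early_2 Col26a1 was again the 1 collagen called (0.813% of all genes passed, 0.381% in the lower direction), 38 of 44 were negative and the median was -0.42, against -0.05 over all genes.

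Col26a1 was weakly expressed throughout. It had 0, 0, 1.57 and 0 normalised reads in HET_late tumours and 0, 22.4, 1.20, 1.21 and 2.35 in WT_late tumours. It had 33.5, 54.5, 18.8 and 16.8 in HET_early tumours, and 1.78 to 11.1 (median 6.92) in WT_early tumours. All HET_early tumours lay above all HET_late and all WT_early tumours, and WT_late_2 was the only late tumour above the WT_early range.

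The fold change of Col26a1 was -2.73 ± 0.51 (SE, log2 scale) over all tumours and -2.58 ± 0.52 without HET_early_2, with an adjusted p of 0.0406 by limma in both. It was -4.44 when 0.1 in place of 1 was added before taking logs, so its size depends on this constant. Its call was lost in 12 of 19 limma fits that each left out 1 tumour, namely HET_late_2, HET_late_4, WT_late_1, WT_late_4, HET_early_1, HET_early_4 or any WT_early tumour, with adjusted p of 0.0532 to 0.081 and fold changes that stayed between -3.09 and -2.52. By edgeR it had an adjusted p of 0.0507 (0.0677 without HET_early_2), and by DESeq2 of 0.00599 (0.0158 without it).

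Col27a1, a fibrillar collagen with a short triple helix known from cartilage, had the largest fold change of the 44 (-3.51 ± 0.78 (SE), limma adjusted p = 0.052) and did not pass. It had 20.04, 20.2, 19.7 and 4.52 normalised reads in HET_late and 54.4, 70.3, 1580, 81.0 and 217 in WT_late tumours. It had 1219, 13431, 607 and 1008 in HET_early and 50.1 to 1360 (median 95.5) in WT_early tumours. The 4 HET_late tumours were the lowest of all 19, WT_late_3 lay above every WT_early tumour, and HET_early and WT_early tumours overlapped. Within Bptf+/+ tumours the medians were close, 81.0 in WT_late and 95.5 in WT_early, which the averaged fold change does not show.

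Without HET_early_2 its fold change was -3.03 ± 0.74 (SE) with a limma adjusted p of 0.0592. It passed with scaling by trimmed means (limma adjusted p = 0.0473), without WT_late_3 (limma adjusted p = 0.0152), without HET_late_1 or HET_late_3, by edgeR with all tumours (adjusted p = 0.044) but not without HET_early_2, and by DESeq2 with and without HET_early_2 (adjusted p of 5.87e-05 and 0.00214).

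The 2 main type IV chains lay just outside the threshold as well. Col4a2 had a fold change of -1.15 ± 0.31 (SE, limma adjusted p = 0.077) and Col4a1 one of -1.15 ± 0.32 (SE, limma adjusted p = 0.0802). Without HET_early_2 these were -0.88 ± 0.25 and -0.87 ± 0.25 (SE, limma adjusted p of 0.0812 and 0.0839). Col13a1, a membrane collagen of the neuromuscular junction, had -2.38 ± 0.74 (SE, limma adjusted p = 0.11), or -1.62 ± 0.50 without HET_early_2 (SE, limma adjusted p = 0.0951). For these 3 genes the limma call was absent in both sets of tumours, whereas edgeR with all tumours and DESeq2 without HET_early_2 called all 3 lower.

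Type I and III chains did not pass. Col1a1 had a fold change of -1.45 with all tumours and -0.46 ± 0.66 (SE) without HET_early_2 (limma adjusted p = 0.728), and Col3a1 one of -0.86 with all tumours and -0.33 ± 0.68 (SE) without it (limma adjusted p = 0.822). Of the 44 collagens, 9 had an unadjusted limma p under 0.05, beside 19% of all genes tested, and 6 without HET_early_2, beside 21.2%. The share of collagens with a low p did not exceed that of all genes by more than 1 collagen.

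The number of collagens called for onset depended on the tool and on HET_early_2. DESeq2 gave an adjusted p for only 20 of the 44 collagens, and for 33 without HET_early_2. It called 7 of the 20 lower (11.8% of its genes were called, 4.58% lower), namely Col4a1, Col4a2, Col4a5, Col15a1, Col18a1, Col26a1 and Col27a1, and edgeR called 9 of 44 lower (2.7% called, 0.928% lower). Without HET_early_2, DESeq2 called 5 of the 33 lower (12.9% called, 4.04% lower), namely Col4a1, Col4a2, Col13a1, Col26a1 and Col27a1, and edgeR called 0 (0.693% called, 0.171% lower). EdgeR then had an unadjusted p under 0.05 for 9 of the 44, beside 22.8% of all genes. The 9 edgeR calls with all tumours were Col4a1, Col4a2, Col13a1 and Col27a1, and Col2a1, Col9a1, Col9a2, Col9a3 and Col11a1, which were high in HET_early_2 and WT_early_5.

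**Figure D3:**
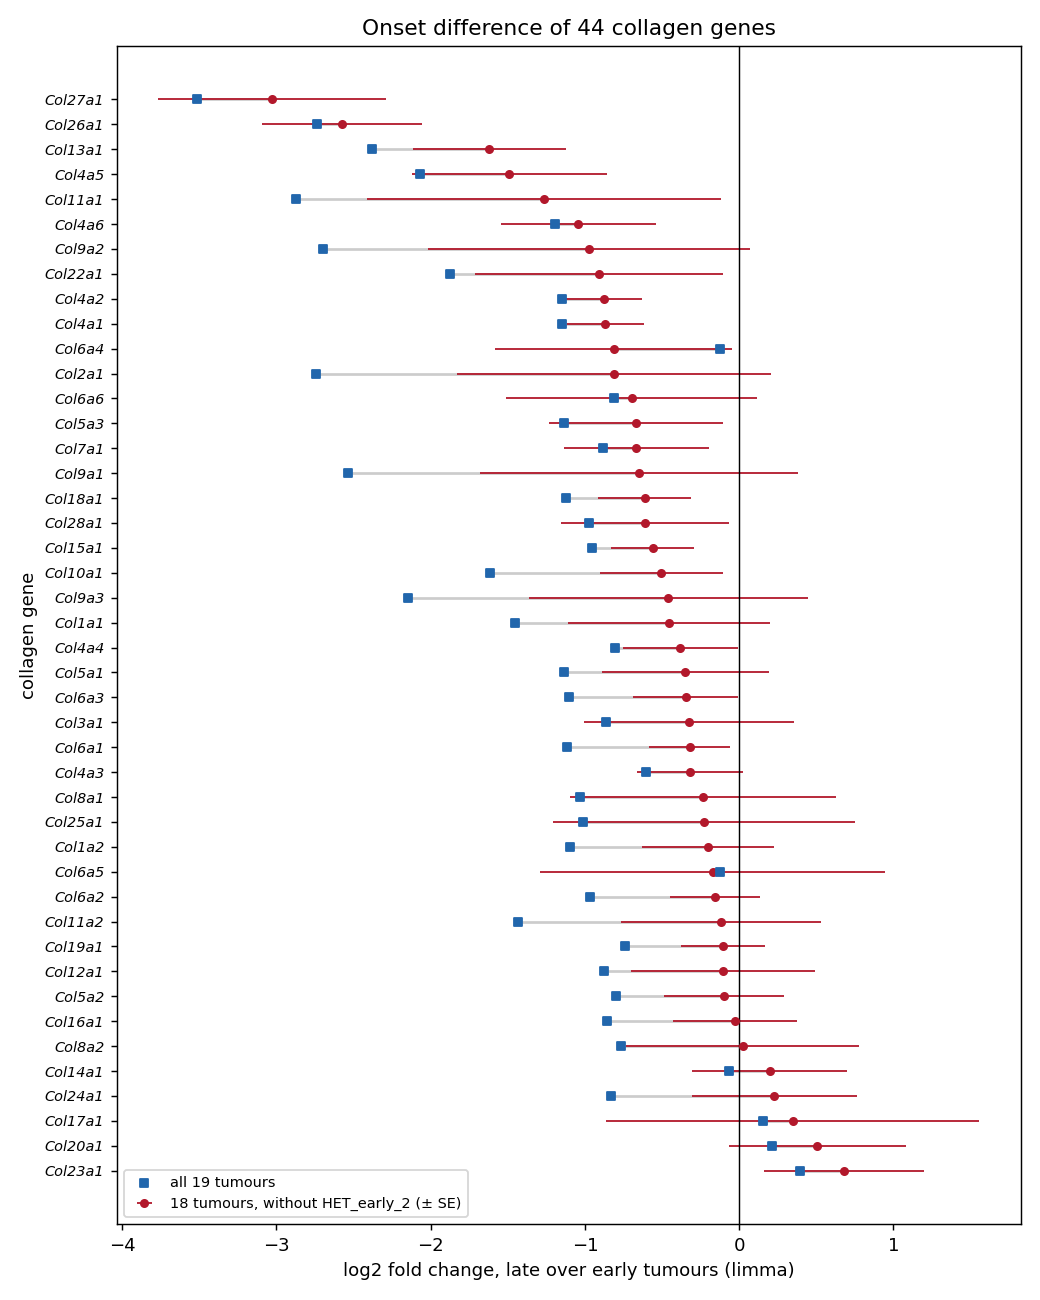
Log2 fold change of late over early tumours for each of the 44 collagens (limma), with squares for all 19 tumours and circles with SE bars for the 18 tumours without HET_early_2. Col27a1 and Col26a1 lie farthest to the left in the 18 tumours, and the cartilage collagens move the most towards 0 when HET_early_2 is left out.

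Marker lists of several cell types had negative median onset fold changes, averaged over genotype, to unequal degrees. Endothelial markers summed to 2635 to 4130 normalised reads in HET_late tumours and 2939.8 to 5162 in WT_late tumours. They summed to 4562 to 11223 in HET_early tumours, against 2206 to 5054 in WT_early tumours, and none was at 0 in any tumour. The range of these endothelial sums in WT_late tumours thus did not lie below that in WT_early tumours. For onset 10 of the 12 had negative fold changes, with a median of -0.70 (-0.51 without HET_early_2), and none passed limma's test. Markers of pro-B and pre-B cells summed to 200.2 to 2804 in HET_late tumours and 199 to 11014 in WT_late tumours. They summed to 1801 to 12599 in HET_early tumours and 2480 to 18467 in WT_early tumours. All 10 had negative fold changes, with a median of -2.52 (-3.27 without HET_early_2), and limma called 0 of them with HET_early_2 and 3 lower without it. Rag2 and Igll1 were at 0 in 3 HET_late tumours and WT_late_1. Of 11 fibroblast markers 8 had negative fold changes, with a median of -0.66, and 7 without HET_early_2, with a median of -0.24. Of 8 B cell markers 4 were negative, with a median of 0.11, and 6 without HET_early_2, with a median of -0.59. Limma called no marker of these 2 lists. The part of these lists in the onset values of the collagens was not tested.

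The authors' deposited table, whose fold changes have the Bptf+/Δ group over Bptf+/+ and late over early as read from the values, gave onset by genotype. In Bptf+/Δ tumours it called 4 of the 15 collagens with an adjusted p, against 4.32% of all its genes, all lower in late tumours: Col26a1 (-6.03, adjusted p = 0.000558), Col4a2 (-2.24, adjusted p = 0.0249), Col4a1 (-2.24, adjusted p = 0.0326) and Col8a1 (-3.84, adjusted p = 0.0443). Col8a1 belongs to the short-chain network under the corneal endothelium and in vessel walls. In Bptf+/+ tumours the authors' deposited table called none of 28 collagens, against 1.94% of its genes. Col26a1 was not among those 28, since it had a fold change (-0.16) but no adjusted p there. Col27a1 likewise had no adjusted p in Bptf+/Δ tumours (-8.28), and in Bptf+/+ tumours it had -0.05 (deposited adjusted p = 0.988). The deposited comparisons share tumours with each other, HET_early_2 is among those of the Bptf+/Δ comparison, and its part in those calls was not tested.

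Bptf+/Δ tumours were next set against Bptf+/+ tumours, averaged over onset, and no collagen passed limma's test. Nor did any of the 19927 genes (0%), while 1988 had an unadjusted p under 0.05 (9.98%), among them 1 collagen. Over all tumours 42 of 44 collagen fold changes were positive with a median of 0.69, and without HET_early_2 only 24 were positive with a median of 0.02. Signs over all genes are not set beside these counts, which describe the collagens alone. Without HET_early_2 5.38% of all genes, and again 1 collagen, had an unadjusted p under 0.05. By edgeR (0% of genes called) and DESeq2 (0.12%, and 0.061% without HET_early_2) the count of collagens called was also 0, but DESeq2 gave an adjusted p for only 19 of the 44 (36 without HET_early_2). The authors' deposited table called none of 39 collagens and 0.338% of its genes.

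The smallest p in this comparison belonged to Col6a3, the long chain of type VI beaded filaments. It had 689.96, 605, 432 and 319 normalised reads in HET_late and 263, 217, 100.01, 257 and 525 in WT_late tumours. It had 773, 30928, 267 and 508 in HET_early and 209 to 1144 in WT_early tumours. At both onsets the genotypes overlapped, and the fold change was 1.39 ± 0.64 (SE, limma adjusted p = 0.493), or 0.63 ± 0.34 without HET_early_2. Next came Col4a3, a chain of the glomerular basement membrane, with 0.80 ± 0.39, Col8a2, the partner chain of Col8a1, with 1.71 ± 0.92, and Col13a1 with 1.22 ± 0.74 (SE, limma adjusted p of 0.493 to 0.52). Without HET_early_2 these 3 had 0.51 ± 0.34, 0.92 ± 0.75 and 0.45 ± 0.50 (SE, limma adjusted p of 0.825 to 0.868).

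Without HET_early_2 all 11 fibrillar collagens had negative genotype fold changes, from -1.35 to -0.21, and the class median was -0.35. The lowest was Col24a1, a fibrillar collagen of developing bone, at -1.35 ± 0.54 (SE, limma adjusted p = 0.825). With HET_early_2 9 of the 11 were positive, with a median of 0.54, so the direction of this class turned on that tumour. The count of 11 rested on WT_early_5 as well: without both tumours 9 of the 11 were negative, with a median of -0.26, and Col2a1 (0.41) and Col11a1 (0.33) were positive.

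In early tumours alone no collagen and no gene (0%) passed limma's test for genotype, with 2293 genes at an unadjusted p under 0.05 (11.5%), 6 of them collagens. The 4 smallest p belonged to Col26a1 (2.16 ± 0.70), Col27a1 (3.32 ± 1.08), Col22a1 (3.80 ± 1.45), known from muscle-tendon junctions, and Col19a1 (1.91 ± 0.75), each with a limma adjusted p of 0.402 (SE). HET_early_2 had the highest value for each. Without it the fold changes were 1.84, 2.35, 1.86 and 0.64 (limma adjusted p = 0.9999 for each). Of the 44 collagens 21 were then positive in place of 43, the median was -0.05 in place of 1.22, and 4 collagens and 4.52% of all genes had an unadjusted p under 0.05. Here too the signs describe the collagens alone, with no count over all genes beside them.

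The authors' deposited table called 1 of 16 collagens for this contrast, Col26a1 (2.30, adjusted p = 0.00876), where 2.09% of its genes were called. EdgeR called none, and DESeq2 called Col8a1 (4.07) and Col18a1 (2.23) higher with HET_early_2 (adjusted p of 0.0301 and 0.0489, 2.67% of its genes called, 19 collagens with an adjusted p) and none without it (0.0186% called, 33 collagens). Col18a1 is a basement membrane collagen whose end fragment is endostatin.

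In late tumours alone no collagen and no gene (0%) passed limma's test for genotype, with 1222 genes at an unadjusted p under 0.05 (6.13%), 1 of them a collagen. That gene was Col27a1, with a fold change of -3.43 ± 1.12 (SE, limma adjusted p = 0.796), whose values in the 4 HET_late tumours all lay below those in the 5 WT_late tumours. The authors' deposited table called it lower (-4.65, adjusted p = 0.00352), as the only one of 30 collagens, where 0.109% of its genes were called. DESeq2 also called it (-4.63, adjusted p = 0.0282, 0.252% of its genes called, and 0.00375 with 0.38% called without HET_early_2), and edgeR called none. On leaving out 1 tumour its limma fold change ran from -3.82 without WT_late_1 to -2.61 without WT_late_3. Col26a1 had -1.37 ± 0.73, Col4a4, another glomerular chain, -1.004 ± 0.69, and Col8a2 1.61 ± 1.32 (SE, limma adjusted p of 0.796 to 0.855). Of the 44 fold changes 28 were positive, with a median of 0.16, against 0.02 over all genes. When HET_early_2 was left out of the shared fit these values did not move, and 9.11% of genes and 2 collagens had an unadjusted p under 0.05.

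The difference between the onset effects of the 2 genotypes was tested as an interaction, and no collagen and no gene (0%) passed limma's test, with 1382 genes at an unadjusted p under 0.05 (6.94%), 5 of them collagens. Without HET_early_2 there were 1314 such genes (6.59%), 2 of them collagens. Col27a1 had the smallest p of the 44, with a value of -6.75 ± 1.56 (SE, limma adjusted p = 0.492), or -5.78 ± 1.48 without HET_early_2. Col26a1 had -3.53 ± 1.01, Col22a1 -5.31 ± 2.09 and Col4a4 -2.24 ± 0.95 (SE, limma adjusted p of 0.657 to 0.714). Without HET_early_2 these 3 had -3.22 ± 1.04, -3.37 ± 1.61 and -1.39 ± 0.75 (SE, limma adjusted p of 0.674 to 0.783). EdgeR called 0 and DESeq2 called Col27a1 (adjusted p = 0.000849, and 0.0283 without HET_early_2, with 0.657% and 0.36% of its genes called). Over the 44 collagens 35 values were negative with a median of -1.14, and without HET_early_2 17 were negative with a median of 0.38. These signs are again not set beside those of all genes. The onset effect of Col27a1 in Bptf+/Δ tumours was thus not shown by limma to differ from that in Bptf+/+ tumours.

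Across the 18 tumours other than HET_early_2, 6 of the 10 other fibrillar chains varied together with Col1a1. Of the 43 other collagens 12 were correlated with Col1a1 on the log2 scale by both Pearson's r and Spearman's rho (adjusted permutation p under 0.05 over the 43), all of them positively. The closest were Col1a2 (r = 0.97, rho = 0.97), Col5a1 (0.96 and 0.95) and Col5a2 (0.95 and 0.97), the type V chains that start fibrils, and Col3a1 (0.93 and 0.93), each with a permutation p of 1e-05 for both, the smallest that the resampling can give, and an adjusted p of 0.000108. Without the 2 tumours farthest from the median Col1a1 level, r for these 4 was 0.97, 0.96, 0.95 and 0.89. The share of all tested genes that pass with Col1a1 was not counted. The 12 of 43 therefore do not set collagens apart from other genes.

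The other 8 were Col5a3, Col11a1, Col12a1, Col15a1, Col16a1, Col17a1, Col18a1 and Col6a2, with r from 0.57 to 0.83. Col8a1 and Col6a3 passed by r alone (0.67 and 0.64), and their r without 2 tumours was 0.40 and 0.47. Among fibrillar chains that did not pass was Col27a1, with r = 0.04, and 12 of the 43 had a negative r. No split of the tumours by batch could be made, because the labels give none.

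**Figure D4:**
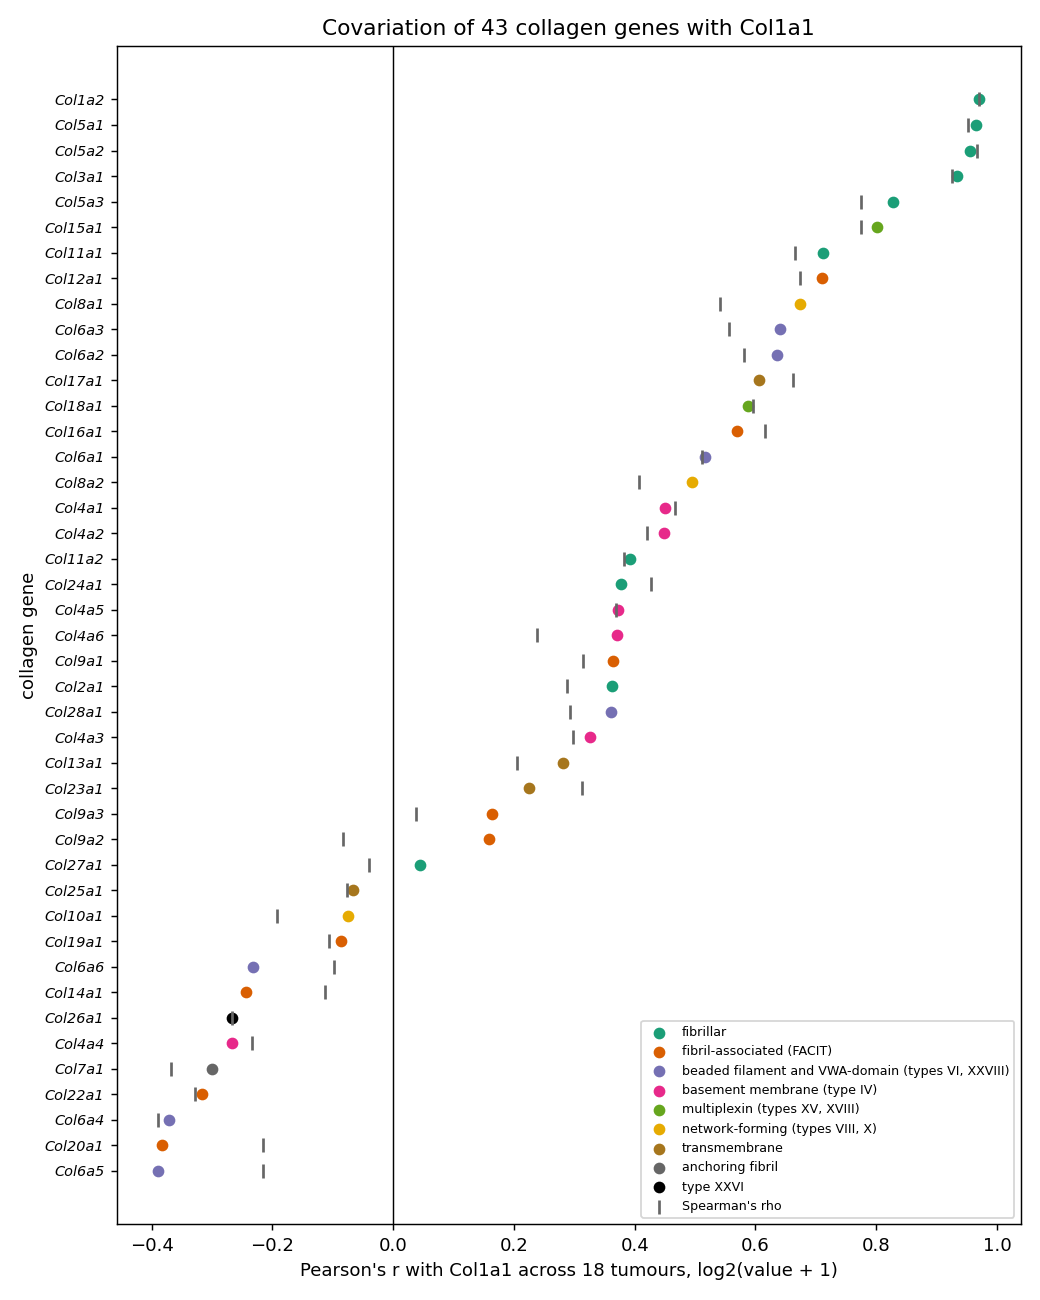
Each row is a collagen other than Col1a1, and the x axis is its correlation with Col1a1 across 18 tumours on the log2 scale, with dots for Pearson's r, coloured by structural class, and ticks for Spearman's rho. Types I, III and V lie at the right end above 0.8, and Col27a1 is the fibrillar chain nearest to 0.

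Type IV chains followed each other more closely than they followed Col1a1. Col4a1 and Col4a2 had r = 0.98 and rho = 0.99 (n = 18, permutation p = 1e-05 each, the smallest possible, adjusted p = 3e-05 over 6 pairs), and r = 0.97 without 2 tumours. With Col1a1, Col4a1 had r = 0.45 and rho = 0.47 (permutation p = 0.0607 and 0.0521, adjusted p = 0.146 and 0.14 over 43) and did not pass. With HET_early_2 included the type IV pair had r = 0.99 and the type I pair r = 0.98.

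Marker levels were related to both sets. The mean log2 level of the 11 fibroblast markers in the table had r = 0.65 and rho = 0.66 with Col1a1 (permutation p = 0.00438 and 0.00374, adjusted p = 0.00876 and 0.00748), and r = 0.50 without 2 tumours. The mean of the 12 endothelial markers had r = 0.51 with Col4a1 (permutation p = 0.0304, adjusted p = 0.0365). Its rho of 0.45 did not pass (permutation p = 0.0617, adjusted p = 0.0617), and r without 2 tumours was 0.36, so this relation rests partly on those tumours. With HET_early_2 the 2 values of r were 0.85 and 0.76.

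**Figure D5:**
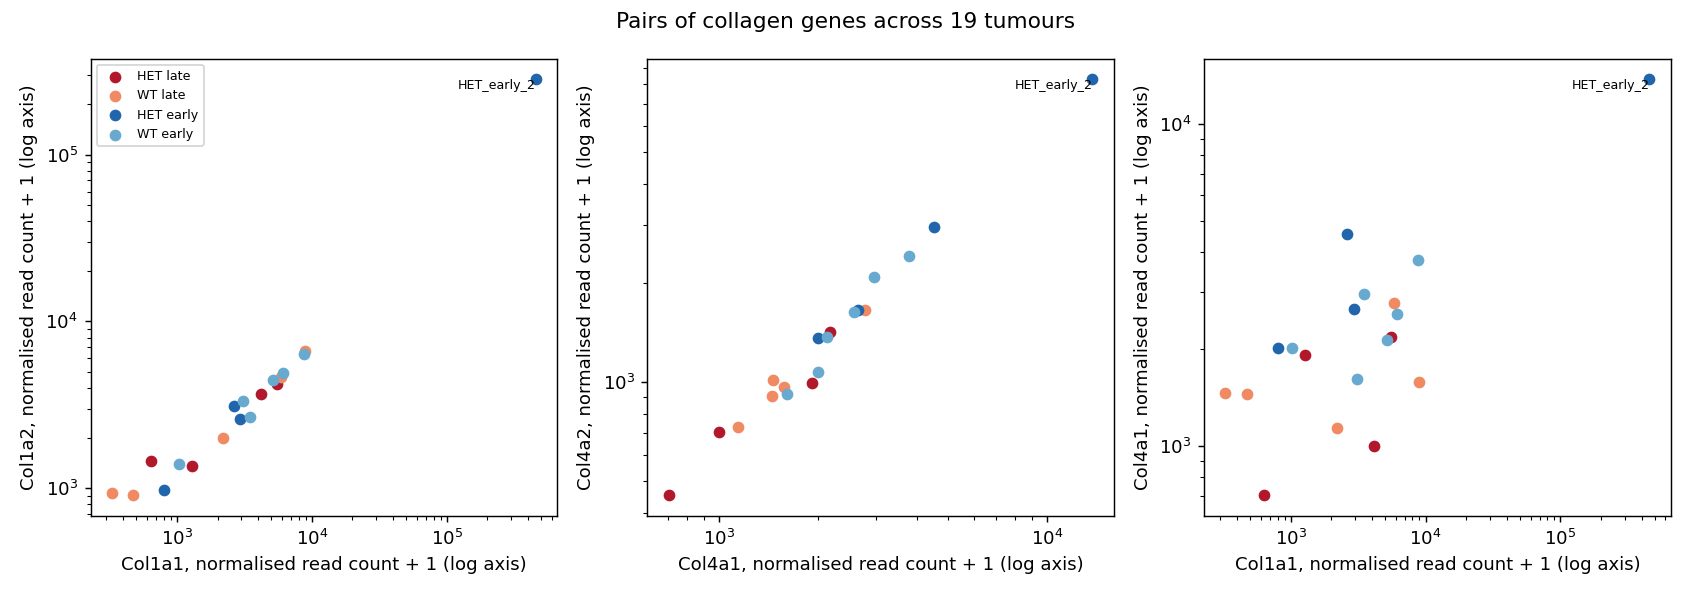
Points are tumours, both axes are normalised read counts plus 1 on log axes, and colours are the 4 groups, for Col1a1 against Col1a2, Col4a1 against Col4a2, and Col1a1 against Col4a1. The first 2 pairs fall on a narrow line over all tumours, the third pair scatters, and HET_early_2 is the top right point in each.

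The genes of these pairs differ in their arrangement. Col4a1 (GRCm38 chromosome 8, 11198423 to 11312826, minus strand) and Col4a2 (11312805 to 11449287, plus strand) start head to head with annotated ends that overlap by 22 bases, so reads there could count for either gene if strand was not used. Col4a4 and Col4a3 on chromosome 1 start 71 bases apart and Col4a6 and Col4a5 on the X chromosome 1308 bases apart, also head to head, at levels too low to compare their chains. Col1a1 (chromosome 11, 94936224 to 94953042, plus strand) and Col1a2 (chromosome 6, 4504814 to 4541544, plus strand) lie on different chromosomes. Col3a1 and Col5a2 are neighbours on chromosome 1, with facing ends 24614 bases apart.

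The ratio of chains within a type spanned 1.36-fold for type IV and 3.91-fold for type I over the 18 tumours. Per kilobase of the longest transcript the ratio of Col4a1 to Col4a2 was 1.38 to 1.88 (median 1.53) over the 18 tumours and 1.61 in HET_early_2. The ratio of Col1a1 to Col1a2 was 0.315 in WT_late_2, 1.23 in WT_early_5 and 1.01 at the median, and 1.46 in HET_early_2. The ratio of Col3a1 to Col1a2 was 0.335 to 2.46 over the 18 tumours and 0.134 in HET_early_2, below all of them.

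Promoter sequence from RefSeq (GRCm38.p6) was found for 35 of the 44 genes and was missing for Col1a1, Col2a1, Col5a2, Col9a3, Col12a1, Col14a1, Col22a1, Col26a1 and Col4a3. Below are the 250 bases before the RefSeq start, on the plus strand, of Col3a1 and Col5a1, which varied with Col1a1, and of Col27a1, a fibrillar gene that did not. None of the 3 windows overlaps an annotated exon of its gene. That of Col27a1 nevertheless lies inside the gene as annotated by GENCODE, which starts at 63214004, before the RefSeq start used here. Capitals mark the letters of a TATA box (TATAAA) in Col3a1 and of GC boxes (GGGCGG on either strand) in the others. Whether any of these letters act as such a box was not tested.
Col3a1, chr1:45311288-45311537: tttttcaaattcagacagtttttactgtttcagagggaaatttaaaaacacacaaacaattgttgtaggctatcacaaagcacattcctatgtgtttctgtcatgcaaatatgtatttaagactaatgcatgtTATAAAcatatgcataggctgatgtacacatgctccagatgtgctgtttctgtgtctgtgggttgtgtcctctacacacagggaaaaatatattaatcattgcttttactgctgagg
Col5a1, chr2:27886175-27886424: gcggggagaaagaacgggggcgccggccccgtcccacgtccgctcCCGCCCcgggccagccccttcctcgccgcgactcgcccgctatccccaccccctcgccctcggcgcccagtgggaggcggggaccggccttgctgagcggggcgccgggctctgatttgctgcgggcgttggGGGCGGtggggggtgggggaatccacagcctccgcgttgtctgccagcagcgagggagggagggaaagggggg
Col27a1, chr4:63215162-63215411: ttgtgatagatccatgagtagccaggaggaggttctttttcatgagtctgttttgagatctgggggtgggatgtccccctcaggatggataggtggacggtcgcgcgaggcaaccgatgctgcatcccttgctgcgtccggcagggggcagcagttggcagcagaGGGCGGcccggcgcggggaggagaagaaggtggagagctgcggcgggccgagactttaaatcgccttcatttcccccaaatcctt
The window of Col3a1 holds TATAAA starting 117 bases before the start and no GC box. That of Col5a1 holds GC boxes at 205 (other strand) and 73 bases, and that of Col27a1 holds one at 85 bases.

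Motifs were searched on both strands, and none contains another. The GC box GGGCGG stood in 22 of 38 windows of collagen genes (57.9%) and in 33.0% of all 32544 promoters of the same length. The CCAAT box, read as CCAAT, stood in 13 windows (34.2%), against 33.8%, and the TATA box, read as TATAAA, in 5 (13.2%), against 12.3%. The E-box that Myc and Max bind, CACGTG, stood in 0 of the 38 windows, against 6.04% of all promoters, which says only that these letters are not in these windows.

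By a rule that took the 5 genes of highest Pearson's r on the log2 scale over 18 tumours, those most like Col1a1 were Col1a2, Col5a1, Col5a2, Fbn1 (the microfibril protein fibrillin, r = 0.95) and Col3a1. Those most like Col4a1 were Col4a2, Pxdn (peroxidasin, which cross-links type IV collagen, r = 0.94), Cdh5 (the endothelial cadherin, r = 0.92), Col18a1 (r = 0.90) and Adamts9 (a secreted proteinase, r = 0.90). Those most like Col26a1 were Sp4, Zfp157, Sncaip, Cep162 and Ccdc173, with r from 0.81 to 0.85 and no other collagen among them.

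Col27a1 and Col6a4 were added after their values were seen. Most like Col27a1 was Rag1, the recombinase of immature lymphocytes (r = 0.89, rho = 0.91), then Slc10a7, Kif2a, AC162528.2 and Map3k4 (r from 0.86 to 0.88). Most like Col6a4 was Pla2g2d, a secreted phospholipase (r = 0.95, rho = 0.97), then Ache, Susd2, Serpina10 and Clec4n (r from 0.92 to 0.94). These ranks come from 19927 genes and describe likeness only.

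The level of Rag1 itself was 0.871, 4.32, 3.15 and 1.51 normalised reads in HET_late and 11.1, 5.10, 5367, 36.2 and 628 in WT_late tumours. It was 3266, 2.66, 2804 and 4452 in HET_early and 145 to 4021 in WT_early tumours. In HET_early_2 the 2 genes parted, with Rag1 at 2.66 and Col27a1 at its highest value of 13431. Col26a1 was related to the mean of the pro-B and pre-B markers over 18 tumours (r = 0.49, permutation p = 0.0392, adjusted p = 0.0392 over 6 pairs, and rho = 0.52, permutation p = 0.028, adjusted p = 0.0336). Without 2 tumours r was 0.56. Within the 9 early tumours without HET_early_2 r was 0.06 (exact permutation p = 0.874), and within the 9 late tumours it was 0.21 (exact permutation p = 0.579), with rho = 0.66 (exact permutation p = 0.0606), so neither onset class passed on its own. Over all 19 tumours r was 0.36 (permutation p = 0.13, adjusted p = 0.13) and did not pass.

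Type VI chains split into 2 patterns. Col6a1, Col6a2 and Col6a3, which assemble the common beaded filament, stayed within 319 to 1431, 218 to 1187 and 100.01 to 1144 normalised reads in the 18 tumours, and WT_early_5 was highest for all 3. Col6a4, Col6a5 and Col6a6, neighbours on 1 strand of chromosome 9 that encode alternatives to the Col6a3 chain, varied more widely. Col6a4 was graded over the 18 tumours, from 1.74 in WT_early_1 to 124 in WT_late_3, 222 in HET_early_1 and 265 in WT_late_2. Col6a5 and Col6a6 were high in a few tumours each. Col6a5 had 711 in HET_late_4, 105 in WT_late_2 and at most 29.4 in the other tumours, and Col6a6 was also highest in HET_late_4, at 79.8. No test was run on these single tumours.

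Other collagens of low level showed single high tumours as well. Col17a1 had 184 normalised reads in WT_late_1, 52.3 in HET_late_1 and 47.5 in HET_late_2, and was at 0 in 8 tumours. Col25a1, a membrane collagen of neurons, had 149 in HET_late_3 and 84.5 in WT_early_3, beside 227 in HET_early_2. Col14a1, whose median over the 18 tumours lay between 100 and 1000, had 1198 in WT_late_2, close to the 1343 of HET_early_2, and 817 in HET_early_1. Col7a1 had 79.0 in WT_early_6, where markers of epithelium and salivary gland summed to 501179, against 15.5 to 6004 in the other tumours, and the part of that tissue in this value was not tested.

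Genes that make, cross-link, bind or degrade collagen also had values that depended on HET_early_2. Of 76 listed, 72 were tested. For onset 62 had negative fold changes with a median of -0.67, and limma called none. Without HET_early_2, 38 were negative with a median of -0.01, and limma called 1, Nid2, a basement membrane linker, lower in late tumours (-1.72 ± 0.30 (SE), adjusted p = 0.0307, against 0.813% of all genes called). With all tumours Nid2 had -2.29 ± 0.51 (SE) and a limma adjusted p of 0.0522.

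By role, the median onset fold change without HET_early_2 was 0.05 for the 14 hydroxylases and glycosyltransferases, 0.00 for the 9 chaperones and export factors, 0.09 for the 8 propeptide proteinases and enhancers, 0.10 for the 5 cross-linking enzymes, 0.14 for the 10 genes of degradation, -0.23 for the 10 receptors and -0.34 for the 16 matrix partners, Nid2 among them. For genotype in early tumours 68 of the 72 were positive with a median of 1.18, and without HET_early_2 34 were positive with a median of -0.05. Limma called none of the 72 for genotype with or without this tumour.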

How the data were processed

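Bulk polyadenylated RNA of 19 mouse lymphomas was analysed. Per the submitters' processing notes, the tools were Cuffdiff, Cuffnorm, Cufflinks 2.2.1, TopHat2 2.1.1 and FastQC 0.11.5, and the builds mm10 and GRCm38. The strand setting and annotation of the expression table, and the tool behind it, are not given in the sources used here. What the authors deposited is a signal, gene counts over 1 factor per library: 100% of values came out as whole reads within 0.01, and these reads were recovered. For 5 comparisons the authors deposited adjusted p-values beside log2 fold changes. Per the labels' protocols the amplification cycles depended on a protocol version that is not given per library.

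A limma 3.58.1 trend fit (R 4.3.3) was made on log2(value + 1), for genes that reached 1 in 4 or more libraries. The 4 group means of 19 libraries were fitted together without covariates, and p-values were adjusted by Benjamini-Hochberg over 19927 genes (threshold 0.05). Replicates are separate tumours, and their numbers only name them. Recovered reads were tested with edgeR 4.0.16 and DESeq2 1.42.0, and all 3 tools were tested on simulated data. Depth was 8297856 to 12497732 reads, which covers counting error only, since PCR copies cannot be told from separate molecules. Permutation tests of correlations used 100000 resamples, or all of them for 9 tumours (SciPy 1.17.1). Coordinates and lengths came from GENCODE M21 (44 of 44 symbols matched).

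Named collagens were those called in any comparison, the 2 of highest level per kilobase in each class, the cartilage collagens, Col26a1, Col27a1, and the 4 of smallest p in each comparison. A few others were named after their values were seen. The collagens, lists and tests were chosen with earlier results of these data known.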

Additional observations from a re-analysis of the deposited data

Results flagged for a closer look

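In groups of 4 to 6 tumours, 24 of 118 sets of values held 1 tumour far from the rest of its group by Dixon's criterion, which chance meets in about 1 in 20 groups. In HET_early_2 these were the collagen share of reads (14.6%) and Col2a1 (566685 normalised reads), Col9a1 (43174), Col9a2 (46497), Col9a3 (39488), Col10a1 (1077) and Col7a1 (74.4). In WT_early_5 they were Col2a1 (7592), Col9a1 (780), Col9a2 (790), Col9a3 (825), Col11a2 (1665), Col22a1 (23.1) and Col6a1 (1431).

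High single tumours elsewhere were HET_late_2 for Col22a1 (5.76) and Col9a1 (4.32), HET_late_3 for Col26a1 (1.57), WT_late_1 for Col9a1 (1.84) and WT_early_6 for Col7a1 (79.0). Low single tumours were HET_late_3 for Col6a2 (332), HET_late_4 for Col27a1 (4.52), and, each at 0, WT_late_2 for Col13a1, HET_early_3 for Col17a1 and WT_early_6 for Col4a3. Of these, Col22a1, Col9a1, Col26a1 and Col27a1 rest on 2 to 4 reads. For Col22a1, Col9a1 and Col26a1 all other tumours of the group were at 0, so any value above 0 met the criterion. The low flags of Col13a1 and Col4a3 rest on as little, since the other tumours of the group had 1 or 2 reads each.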

How the results depend on the processing

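No paired analysis was possible because the labels give the tumours no shared replicate numbers. For onset, 1 collagen was called, against 2 with scaling by trimmed means, 7 by DESeq2 (5 without HET_early_2), 9 by edgeR (0 without HET_early_2), 0 with log2 weeks of onset and 0 without the 3 tumours whose most abundant gene differed from that of the others (HET_early_2, WT_early_6, HET_late_4). On leaving out each tumour in turn the count was 0 to 3. For genotype no fit by limma or edgeR called a collagen, while DESeq2 called 2 in early tumours and 1 in late tumours (1 without HET_early_2), and 1 for the interaction (1 without HET_early_2). The median interaction of the 44 collagens was -1.14, against -3.53 by DESeq2 and -3.49 by edgeR. On leaving out each tumour, the median fold change of the 44 ran from -1.41 (without HET_early_3) to -0.42 (without HET_early_2) for onset, from 0.02 to 1.05 for genotype, from -0.05 to 2.06 for genotype in early tumours, from -0.12 (without WT_late_3) to 0.44 (without WT_late_1) for genotype in late tumours and from -1.72 to 0.38 for the interaction, with HET_early_2 and HET_early_3 at the ends where no other is named, and 0 collagens called throughout for the last 4. Without HET_early_2 the onset fold change turned slightly positive for Col1a1 (0.0312 by edgeR, adjusted p = 0.984, and 0.0389 by DESeq2, adjusted p = 0.975). It did so for Col3a1 as well (0.10 by edgeR, adjusted p = 0.944, and 0.11 by DESeq2, adjusted p = 0.932). By limma both genes stayed negative, and neither passed in any of these fits. The cause of these changes was not tested. The edgeR and DESeq2 fits without HET_early_2 were added after seeing the data. Fitting only the groups compared, no filter and a pseudocount of 0.1 moved no count of calls. DESeq2 gave an adjusted p for only 18 to 20 of the 44 collagens by comparison (32 to 36 without HET_early_2), so its counts are over fewer genes. Depth limits the 20 collagens with a median under 10 normalised reads, Col26a1 among them.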
